A study of Mus musculus with 4 samples.

Results

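Adhesion G protein-coupled receptors (GPCRs) are a family of cell surface receptors. The H3K27me3 signal over their genes was followed in mouse alveolar macrophages labelled wild type or Suz12 cKO. Members were taken by name, as every gene in the deposited table whose current mouse symbol is Adgr followed by a subfamily letter and a number, which gave 27 of 27095 gene windows. The rule uses the name alone and no measured value, though it was set with earlier results of these data known. Celsr1, Celsr2 and Celsr3, which belong to the same receptor family but keep another symbol, are treated with the ligands and partners. The series held 4 Cut&Tag libraries, a method in which an antibody guides a transposase to cut chromatin around a mark, made with anti-H3K27me3 from 100000 sorted lung alveolar macrophages each. The C57BL/6-Ly5.1 hosts were irradiated and given marrow of which 10% was wild-type Ly5.1 and 90% Ly5.2, and the Ly5.2 part was wild type in 2 libraries and Suz12 cKO in the other 2, which the design text calls biological replicates. All mice were thus chimeras that also carried wild-type Ly5.1 marrow. The sources used here do not give the Cre line, the age of the mice or whether Ly5.1 cells were sorted away.

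H3K27me3 is a repressive histone mark laid down by PRC2, of which Suz12 is an obligate subunit, and genes of other tissues and of development commonly carry it in a differentiated cell. Adhesion GPCRs pair a long extracellular region, which binds matrix or partner cells, with a membrane domain of the GPCR type. Most cut themselves at a site in the GAIN domain next to the membrane, and the freed stub acts as a tethered agonist. In this tissue Adgre1 encodes the antigen F4/80, by which mouse macrophages are stained, and Adgrf5 is known for control of surfactant in the alveolar epithelium.

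The libraries held 2592297 and 2142175 counts over gene windows in wild type and 3331138 and 3567282 in cKO, so depth moved with genotype. Members took 0.417% and 0.426% of these counts in wild type and 0.441% and 0.457% in cKO. Without Adgrl3 the shares were 0.404% and 0.413% against 0.407% and 0.426%. The Suz12 window held 8 and 10 counts in wild type and 11 and 10 in cKO, which does not check the deletion, since the counted window spans the whole gene. The 10 marker genes of alveolar macrophages included Adgre1, itself a member. Their sum was 80.3 and 76.9 CPM (counts scaled to library size with TMM factors) in wild type and 98.8 and 103 in cKO. None of the 8 tested was called (1 at an unadjusted p below 0.05, 0 by DESeq2), where 6.42% of all tested genes were. Per kb the median marker of alveolar macrophages stood at 0.127 CPM (wild type) and 0.208 (cKO), against, in the same order, 1.70 and 1.72 for lung epithelium, 1.55 and 1.75 for endothelium, 3.37 and 4.22 for fibroblasts, 0.706 and 0.900 for T and NK cells and 1.15 and 1.26 for B cells. Of those other lists 1 fibroblast gene was called, and 1 B cell gene was at 0 in every library. RNA was not measured.

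In wild-type cells the receptor genes ranged from strongly to barely marked, from Adgre5 at percentile 97.7 of tested genes to Adgrl2 at percentile 5.2. Counts were summed over 1 window per gene, in 18 members within 1% of the length of the reference gene with 3 kb on each side, so levels between genes are compared as CPM per kb of the deposited window length. The median member had 1.45 CPM per kb (wild type) and 1.53 (cKO), beside 0.672 and 0.687 over all 16752 genes tested. In wild type 19 members lay above the median tested gene, 8 below it and 5 above percentile 90. All 27 members passed the count filter.

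**Figure D1:**
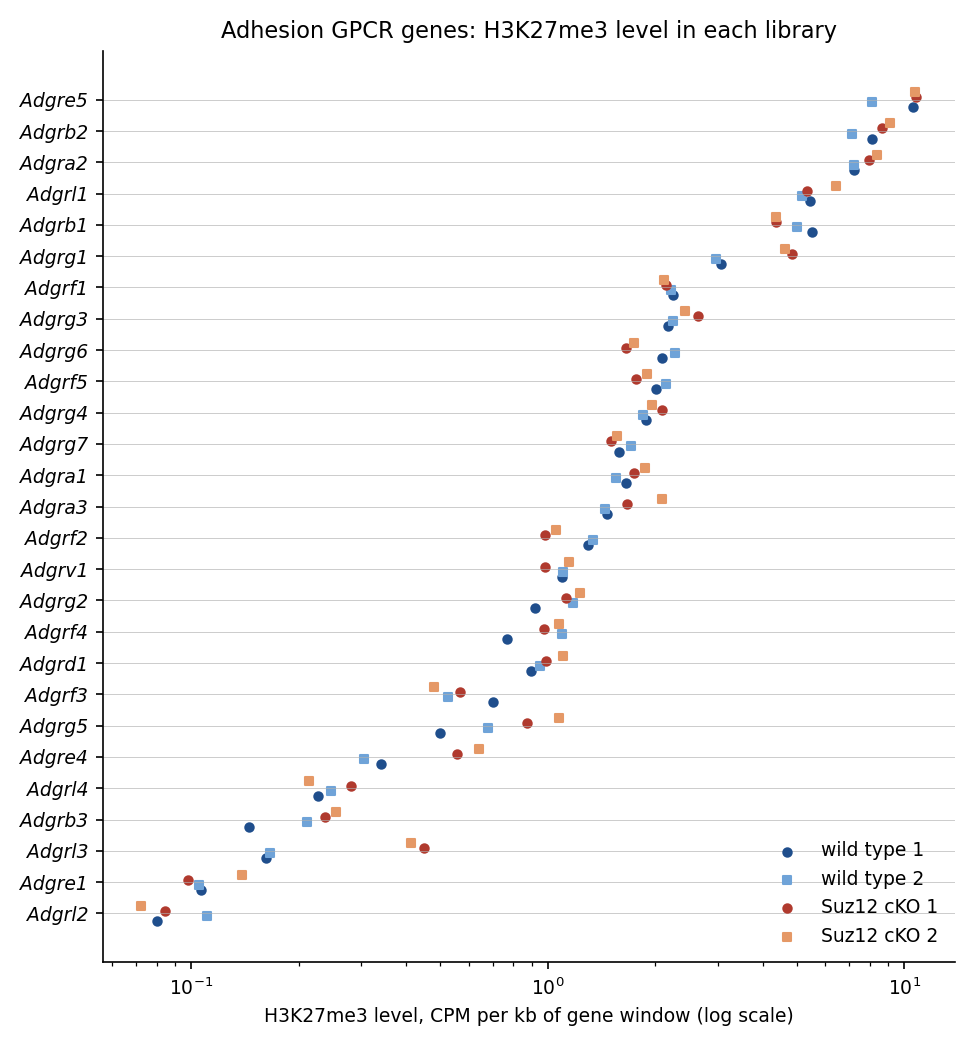
H3K27me3 level of the 27 genes, in CPM per kb of gene window on a log axis, with 1 point per library (blue wild type, red and orange Suz12 cKO), ordered by the wild-type mean. Levels run from 0.0953 CPM per kb at Adgrl2 to 9.32 at Adgre5, and the 4 libraries lie close together for most genes but not for Adgrl3.

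The 5 highest levels were those of Adgre5, Adgrb2, Adgra2, Adgrl1 and Adgrb1. Adgre5, which encodes the leukocyte receptor CD97, had 10.5 and 8.11 CPM per kb in wild-type libraries 1 and 2 and 10.8 and 10.7 in cKO libraries 1 and 2. Another window, that of Ddx39a, overlaps 40.1% of its window, so this level is uncertain. Adgrb2, a brain receptor, had 8.13 and 7.13 CPM per kb in wild type and 8.65 and 9.13 in cKO. Adgra2, a co-receptor for Wnt7 in brain vessels, stood at 7.21 and 7.24 and at 7.93 and 8.39. In all 3 genes both cKO libraries lay above both wild-type libraries, and none was called. Genotypes lay apart, in either direction, in 47.6% of all tested genes. Adgrl1, a latrophilin of synapses, had 5.43 and 5.15 CPM per kb (wild type) and 5.32 and 6.45 (cKO), with overlapping genotypes. Adgrb1, an engulfment receptor, was the only one of the 5 that was lower in both cKO libraries, at 4.37 in each, than in wild type, at 5.50 and 5.00.

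The 5 lowest wild-type levels were those of Adgrl2, Adgre1, Adgrl3, Adgrb3 and Adgrl4. Adgre1 held 36 and 30 counts in wild type and 42 and 62 in cKO, or 0.107 and 0.105 CPM per kb against 0.0982 and 0.138. The genotypes overlapped, and the wild-type level lay at percentile 7.4 of the tested genes. Its log2 fold change was 0.16 with a 95% interval of −0.41 to 0.74, so a change anywhere within these bounds is compatible with its counts. Adgrl2, a latrophilin of synapses and vessels, held 30, 35, 40 and 36 counts in wild-type libraries 1 and 2 and cKO libraries 1 and 2, at percentile 5.2, with an interval of −0.89 to 0.35. Adgrl4, an endothelial receptor of sprouting vessels, had 0.226 and 0.247 CPM per kb (wild type) and 0.281 and 0.214 (cKO). Adgrl3 and Adgrb3 were long windows with a low signal per kb in wild type, and both were higher in cKO.

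Between genotypes 5 members gained H3K27me3 in cKO (Adgrl3, Adgre4, Adgrg1, Adgrb3 and Adgra3) and 1 had less of it, here termed lost (Adgrg6). These 6 of 27 (22.2%) compare with 6.42% of all tested genes, of which 4.46% gained and 1.96% lost. Members held more counts than the usual gene, with a median of 374 counts per library against 43, and a larger count makes a call easier: of all tested genes with a mean of at least 50 counts 10.7% were called, and 24 members, the 6 among them, had that many. The median log2 fold change of members was 0.16, beside −0.01 over all tested genes. The 2 cKO libraries lay on 1 side of the 2 wild-type libraries in 19 members, 13 higher and 6 lower, or 70.4%, against 47.6% of all tested genes. Calls are from edgeR's quasi-likelihood test at an adjusted p below 0.05 over all 16752 genes. Since CPM are shares of a library, an equal loss at every gene would leave them as they are. Over all genes gains were 69.4% of calls with TMM factors, 55.7% with library totals, 48.8% with upper-quartile factors and 91.9% with housekeeping scaling, which shifted the log2 fold change of the median gene by 0.21. Among members the calls were 5 gained and 2 lost with library totals, 4 and 2 with upper-quartile factors and 4 and 0 with housekeeping scaling, and the member median was 0.11, 0.08 and 0.38. With counts thinned to the shallowest library 3 members gained and 1 lost, and the member median was 0.17. Without cKO library 2, 3 members were called, Adgrl3, Adgre4 and Adgrg1.

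**Figure D2:**
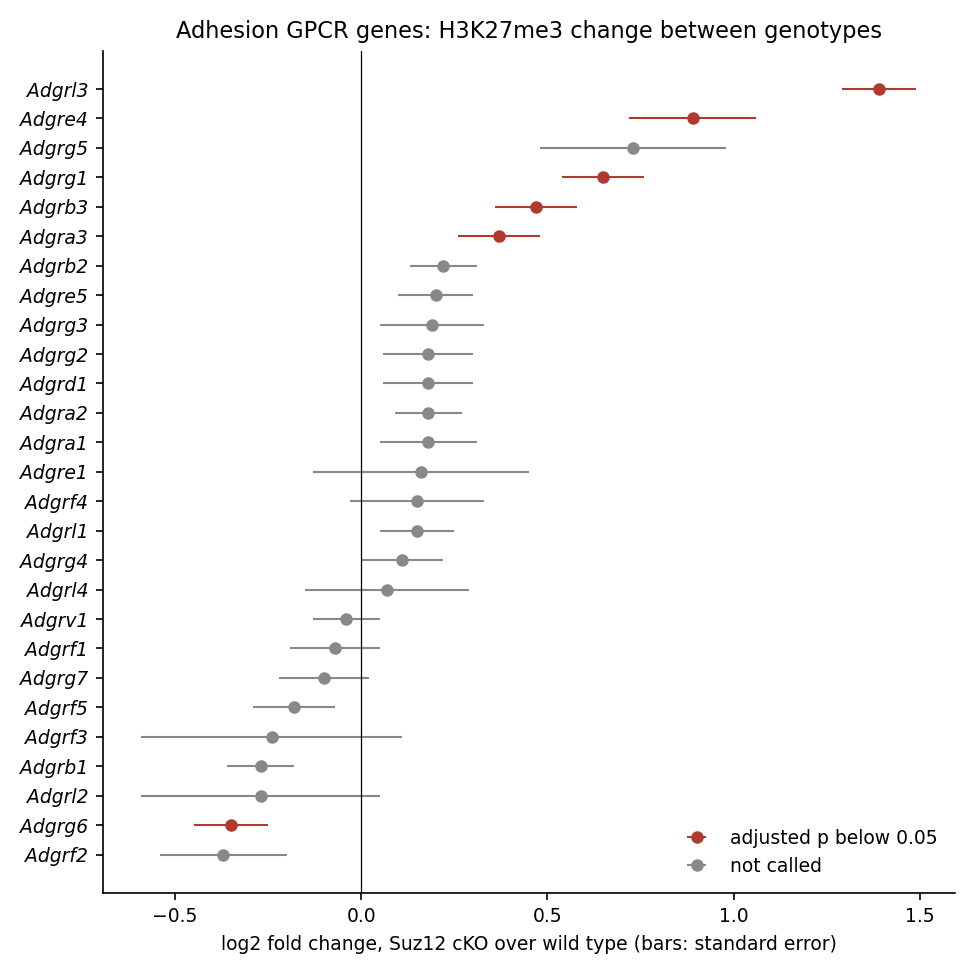
Log2 fold change of each of the 27 genes, Suz12 cKO over wild type, with its standard error as a bar, red where the adjusted p was below 0.05. Adgrl3 stands apart on the right at 1.39, and Adgrg6 is the only called gene left of 0.

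**Figure D3:**
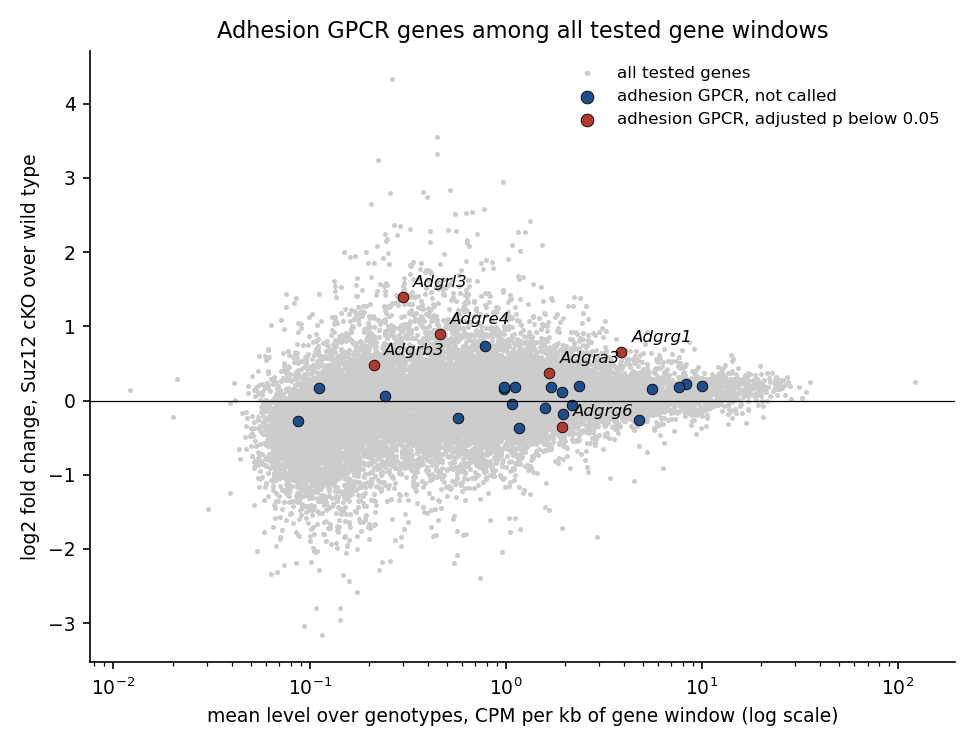
Log2 fold change, Suz12 cKO over wild type, against the mean level in CPM per kb (log axis) for all 16752 tested genes in grey, with the 27 receptor genes in blue (not called) and red (called). Adgrl3, Adgre4 and Adgrb3 lie at low levels, Adgrg1, Adgra3 and Adgrg6 at higher ones.

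The latrophilins Adgrl1 to Adgrl4 are receptors for teneurins and Flrt proteins, known above all from synapses. Adgrl3 (chromosome 5, gene at 81019085 to 81827825, mm10) had 127 and 130.0 CPM in wild type and 351 and 323 in cKO. Every cKO value was thus more than 2-fold above every wild-type value. The means were 128 ± 2.29 and 337 ± 19.6 CPM (SD, n = 2 each), a 2.63-fold difference (log2 fold change 1.39, SE 0.10, adjusted p = 9.34e-29). It was called in all 13 alternative settings, at 1.31 to 1.60. By p it ranked 10 of the 16752 genes, and 151 genes, itself included, had a log2 fold change at or above its own. Per kb Adgrl3 went from percentile 19.2 of tested genes in wild type to 39.0 in cKO, so it was still below the median gene. Of 192 tested windows of at least 500 kb, a limit set after its length was seen, 23 gained and 6 lost (median log2 fold change 0.03), and 2 of them, Adgrl3 included, had a change as large. No other window overlaps that of Adgrl3 by reference positions.

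None of the other latrophilins was called. Adgrl1 had 260 and 246 CPM in wild type and 255 and 309 in cKO, with a log2 fold change of 0.15 ± 0.10 (adjusted p = 0.422). Other windows overlap 32.7% of the Adgrl1 window. Adgrl4 was at 0.07 ± 0.22, with an interval of −0.36 to 0.49, and Adgrl2 at −0.27 ± 0.32. The interval of each of these 3 genes ends well below the lower bound for Adgrl3, 1.19. The difference between them and Adgrl3 was not tested as such.

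Among the receptors with EGF-like repeats of myeloid cells, Adgre4 gained H3K27me3 while Adgre1 and Adgre5 were not called. Adgre4 (chromosome 17, 55749984 to 55853662) encodes FIRE, a macrophage surface receptor, and had 37.2 and 33.4 CPM in wild type and 61.2 and 70.1 in cKO. The log2 fold change was 0.89 ± 0.17 (adjusted p = 1.28e-05), or 1.85-fold, and the call held in all 13 alternatives, at 0.79 to 1.10. Per kb its level stayed below the median gene, with 0.322 ± 0.0245 CPM (wild type) and 0.598 ± 0.0576 CPM (cKO; SD, n = 2 each). Adgre5 had 254 and 195 CPM in wild type and 259 and 258 in cKO, with a log2 fold change of 0.20 ± 0.10 (adjusted p = 0.265). Wild-type library 2 was the low one, and the value turned on it: without wild-type library 1 the change was called at 0.41 (adjusted p = 0.00954), and without wild-type library 2 it was 0.04 (adjusted p = 0.922).

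On chromosome 8 the genes Adgrg5, Adgrg1 and Adgrg3 follow one another, and all 3 are known from leukocytes. Adgrg1, which encodes GPR56, a receptor for collagen III and transglutaminase known from cytotoxic lymphocytes and cortical development, lies at 94974756 to 95014208. It had 132 and 128 CPM in wild type and 209 and 199 in cKO. The log2 fold change was 0.65 ± 0.11 (adjusted p = 8.95e-07), or 1.57-fold, and it was called in all 13 alternatives, at 0.57 to 0.86. Adgrg5, before it, had 12.8 and 17.4 CPM in wild type and 22.3 and 27.5 in cKO. Its log2 fold change of 0.73 ± 0.25 missed the threshold (adjusted p = 0.06) on counts of 33 and 38 in wild type and 73 and 94 in cKO, and was called with housekeeping scaling (0.95, adjusted p = 0.0356). Adgrg3, after Adgrg1, had 72.9 and 75.6 CPM in wild type and 88.4 and 81.5 in cKO, at 0.19 ± 0.14 (adjusted p = 0.474). Adgrg1 held 1.81 and 1.69 times the counts of Adgrg3 in wild type and 2.36 and 2.44 times in cKO. The windows of Adgrg1 and Adgrg3 overlap by 6.8% of the former, and 8.3% of the Adgrg5 window overlaps that of Ccdc102a, which leaves these values uncertain.

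**Figure D4:**
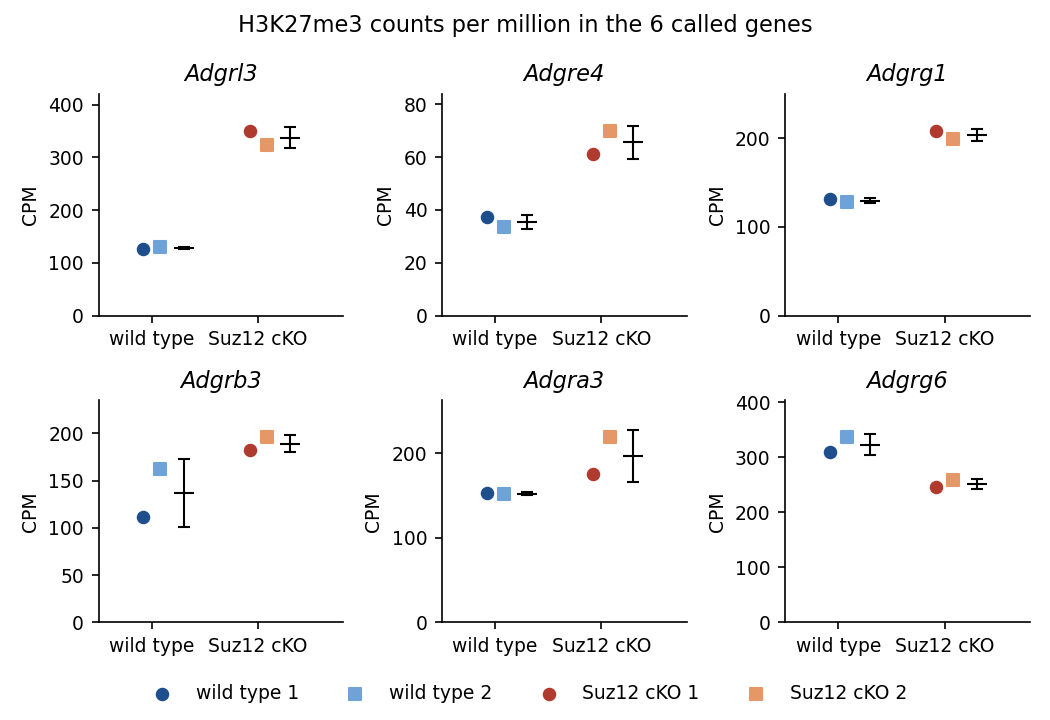
CPM in each library for the 6 called genes, each on its own axis from 0, with the mean and SD of each genotype (n = 2) as a black bar beside the points. In each of the 6 panels the 2 genotypes do not overlap, as in 47.6% of all tested genes, and the 6 are shown because they were called. Adgrb3 and Adgra3 show the widest spread within a genotype.

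The other called changes were smaller, and their calls were lost when single libraries were left out. Adgrb3, a synaptic receptor for C1q-like proteins, had 112 and 163 CPM in wild type and 183 and 196 in cKO (log2 fold change 0.47 ± 0.11, adjusted p = 0.00132). Wild-type library 1 was the low one, and without it the change was 0.23 (adjusted p = 0.355). The call was also lost without cKO library 2 (0.42, adjusted p = 0.166), with thinned counts (0.36, adjusted p = 0.0763), with housekeeping scaling (0.69, adjusted p = 0.0574) or by DESeq2 (0.47, adjusted p = 0.471). Adgra3, an orphan receptor known as GPR125, had 154 and 152 CPM in wild type and 175 and 219 in cKO (0.37 ± 0.11, adjusted p = 0.017). Library 2 of cKO carried much of this gain, since without it the change was 0.20 (adjusted p = 0.722). The call was also lost with upper-quartile factors (0.28, adjusted p = 0.099), thinned counts (0.28, adjusted p = 0.145), housekeeping scaling (0.59, adjusted p = 0.13) and DESeq2 (0.37, adjusted p = 0.166), so the change itself was larger or equal in the last 2.

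Adgrg6, which encodes GPR126, the receptor that lets Schwann cells myelinate, had less of the mark in cKO. Per kb it went from percentile 82.7 of tested genes in wild type to 75.8 in cKO, so it stayed above the median gene. It had 310 and 337 CPM in wild type and 246 and 259 in cKO, with a log2 fold change of −0.35 ± 0.10 (adjusted p = 0.00828), or 0.782 of the wild-type level. It was called in 9 of 13 alternatives. The exceptions were without wild-type library 2 (−0.28, adjusted p = 0.0942), without cKO library 1 (−0.31, adjusted p = 0.255), without cKO library 2 (−0.39, adjusted p = 0.146) and with housekeeping scaling (−0.14, adjusted p = 0.8).

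Adgrb1 lay just beyond the threshold. It encodes BAI1, which binds phosphatidylserine on dying cells and signals through Elmo1 and Dock1, and had 436 and 396 CPM in wild type and 346 and 347 in cKO (log2 fold change −0.27 ± 0.09, adjusted p = 0.0565). It was called as lost with library totals (−0.32, adjusted p = 0.00568), upper-quartile factors (−0.35, adjusted p = 0.00437), a mean of at least 50 counts (−0.32, adjusted p = 0.00229) and without wild-type library 2 (−0.32, adjusted p = 0.0195), and stood at −0.06 with housekeeping scaling. Its relative Adgrb2 had 354 and 310 CPM in wild type and 377 and 398 in cKO, at 0.22 ± 0.09 (adjusted p = 0.155), and passed the test once wild-type library 1 was left out (0.33, adjusted p = 0.0294).

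The remaining members were not called, and Adgrf5 and Adgrf1 lay above most tested genes in wild type, at percentiles 81.8 and 83.3. Adgrf5 had 153 and 164 CPM in wild type and 135 and 144 in cKO (log2 fold change −0.18 ± 0.11, adjusted p = 0.399). Adgrf1, a receptor for the lipid synaptamide that lies next to it on chromosome 17, had 135 and 133 CPM in wild type and 129 and 127 in cKO (−0.07 ± 0.12, adjusted p = 0.826). In both genes the cKO libraries lay below the wild-type ones, and neither difference passed the test. Such a gap, in either direction, was found in 47.6% of all tested genes. Both changes turned positive with housekeeping scaling, to 0.03 and 0.14. Over the 5 Adgrf genes the change ran from −0.37 at Adgrf2 to 0.15 at Adgrf4, whose windows overlap each other, and 0 were called (1 at an unadjusted p below 0.05, 0 by DESeq2). With 6.42% of all tested genes called, 0 of 5 is near that share. Adgrv1, the very large receptor of inner ear hair bundles, had the most counts of all members, 1534 and 1309 in wild type and 1745 and 2141 in cKO. Its log2 fold change was −0.04 ± 0.09, with an interval of −0.21 to 0.13 around no change. Of the 21 members not called, 13 had a positive and 8 a negative log2 fold change, and their adjusted p ran from 0.0565 to 0.921. The size of the change did not follow the length of the window: Pearson's r of log2 fold change with log10 length over the 27 members was 0.28, and −0.01 over the 26 without Adgrl3. Nor did it follow the level in a steady way, as Spearman's rank correlation of the level in 1 wild-type library with the change from the other was 0.02 and −0.33. These correlations are across genes of the same libraries and carry no test.

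The promoters of these genes differ widely in CG dinucleotides, which mark the CpG islands where PRC2 is known to be recruited. RefSeq promoter windows of build GRCm38.p6, 250 bases before to 50 after a start, were found for 20 members. Where several starts are listed, the window with most CG was used. The 6 below are the called genes Adgrl3, Adgre4, Adgrg1 and Adgrg6, with Adgrb2 as the highest and Adgrl2 as the lowest in wild-type level among the 20. Each is written 5′ to 3′ on the strand of the gene, with every CG in capitals.
Adgrl3: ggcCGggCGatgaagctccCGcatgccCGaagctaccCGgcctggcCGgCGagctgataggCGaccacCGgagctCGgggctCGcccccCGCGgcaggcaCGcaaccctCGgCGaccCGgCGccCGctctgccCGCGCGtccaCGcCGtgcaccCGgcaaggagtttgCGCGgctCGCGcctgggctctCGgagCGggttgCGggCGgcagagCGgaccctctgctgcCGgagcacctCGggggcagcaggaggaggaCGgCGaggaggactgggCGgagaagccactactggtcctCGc
Adgre4: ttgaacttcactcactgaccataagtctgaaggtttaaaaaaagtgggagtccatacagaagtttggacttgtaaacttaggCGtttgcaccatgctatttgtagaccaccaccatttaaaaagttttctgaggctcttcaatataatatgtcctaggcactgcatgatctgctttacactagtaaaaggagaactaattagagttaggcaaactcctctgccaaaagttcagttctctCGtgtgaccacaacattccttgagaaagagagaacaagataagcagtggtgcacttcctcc
Adgrg1: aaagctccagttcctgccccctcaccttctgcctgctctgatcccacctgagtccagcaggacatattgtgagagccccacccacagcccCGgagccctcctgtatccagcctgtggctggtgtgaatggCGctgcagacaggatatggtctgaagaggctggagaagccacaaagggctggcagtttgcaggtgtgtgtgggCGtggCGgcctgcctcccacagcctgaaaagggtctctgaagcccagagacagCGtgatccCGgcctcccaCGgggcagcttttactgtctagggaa
Adgrg6: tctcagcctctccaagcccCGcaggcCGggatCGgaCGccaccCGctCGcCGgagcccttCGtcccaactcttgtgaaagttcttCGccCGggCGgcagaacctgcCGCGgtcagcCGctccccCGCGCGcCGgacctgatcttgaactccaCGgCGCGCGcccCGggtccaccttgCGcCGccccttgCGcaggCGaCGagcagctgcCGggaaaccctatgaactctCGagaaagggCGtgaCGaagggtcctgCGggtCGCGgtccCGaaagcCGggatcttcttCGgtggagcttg
Adgrb2: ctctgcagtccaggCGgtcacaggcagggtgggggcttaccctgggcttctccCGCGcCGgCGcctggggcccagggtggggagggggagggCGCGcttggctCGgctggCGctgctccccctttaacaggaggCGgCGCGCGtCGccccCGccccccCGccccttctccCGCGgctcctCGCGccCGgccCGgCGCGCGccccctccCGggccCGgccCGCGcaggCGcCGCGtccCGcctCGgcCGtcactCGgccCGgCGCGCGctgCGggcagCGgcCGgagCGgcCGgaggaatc
Adgrl2: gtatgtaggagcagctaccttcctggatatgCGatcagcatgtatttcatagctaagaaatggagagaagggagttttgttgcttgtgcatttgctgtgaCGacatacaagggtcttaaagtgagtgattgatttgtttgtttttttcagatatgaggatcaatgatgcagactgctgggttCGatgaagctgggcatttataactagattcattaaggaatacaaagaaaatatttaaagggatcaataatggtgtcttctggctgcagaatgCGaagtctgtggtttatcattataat
They lie at chr5:81020321-81020620 (plus strand), chr17:55749734-55750033 (plus), chr8:94976859-94977158 (plus), chr10:14544987-14545286 (minus), chr4:129984620-129984919 (plus) and chr3:148954586-148954885 (minus). The Adgrl2 window, the only one listed for that gene, lies inside the gene, which spans 148815586 to 148989096. On the minus strand this gene begins at the higher position, so the window may not be its main promoter. The Adgrl3, Adgrg1 and Adgrg6 windows also lie wholly inside their genes by reference positions, so they may not be the main promoters either. That of Adgrl3 was chosen for most CG from 3 listed, and that of Adgrg1 from 2.

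By the letters CG the Adgrb2, Adgrl3 and Adgrg6 windows were dense, with 45, 40 and 38, while Adgrg1, Adgrl2 and Adgre4 held 7, 4 and 2. Called genes thus came with dense and with sparse promoters: Adgrl3 and Adgre4, the largest gains, had 40 and 2. The called genes not printed above, Adgra3 and Adgrb3, had 34 and 16. At least 15 CG stood in 8 of the 20 members and in 48.3% of the 12259 tested genes that have a promoter entry. The median wild-type level was 1.53 CPM per kb for those 8 members and 1.37 for the other 12, while over all tested genes it was 0.277 with at least 15 CG and 0.862 with fewer. Across the 20 members Spearman's rank correlation of CG with wild-type level was 0.08, and with log2 fold change 0.21. Over all tested genes that with level was −0.25. These are descriptions across genes of the same libraries. The level is an average over the whole window, in which a mark confined to the promoter of a long gene, such as Adgrl3, counts for little.

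**Figure D5:**
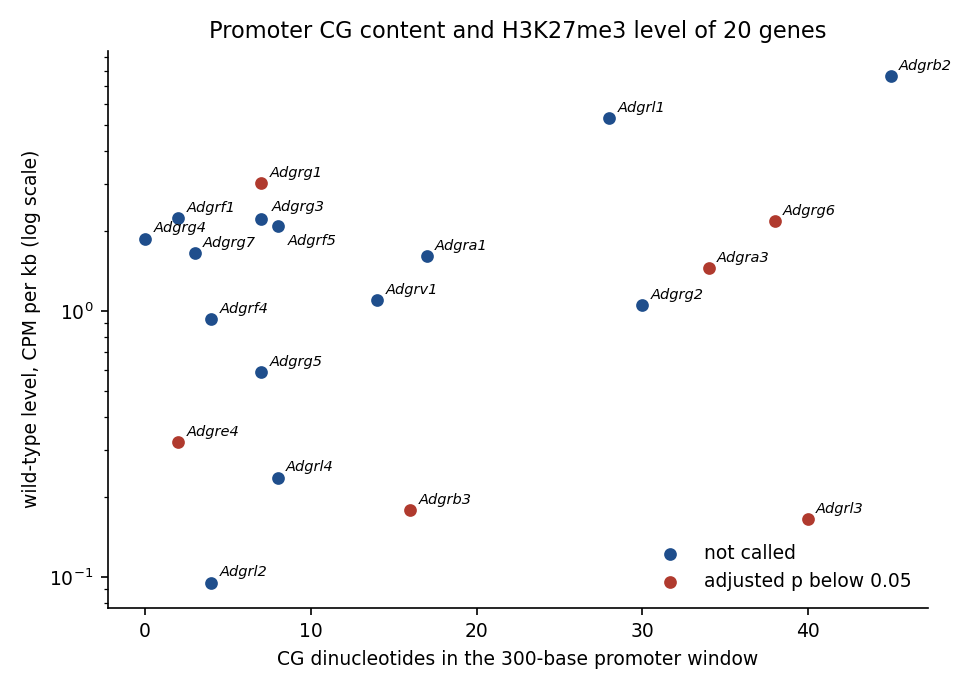
Wild-type H3K27me3 level in CPM per kb (log axis) against CG dinucleotides in the promoter window for the 20 members with an entry, red where called between genotypes. Called genes lie across the range, from Adgre4 with 2 CG to Adgrl3 with 40.

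None of the 12 nearest tested windows on either side of the called genes was itself called (2 at an unadjusted p below 0.05, 0 by DESeq2), Adgrg5 and Adgrg3 among them. Over all tested genes 6.42% were called, so 0 of 12 is near that share. The windows beside Adgrl3, Pea15b and Tecrl, lie 3510 and 1450 kb away and were at 0.04 ± 0.39 and 0.07 ± 0.31. Those beside Adgre4, Pot1b and Zfp119a, lie 37.3 and 11.2 kb away and were at 0.24 ± 0.53 and −1.15 ± 0.56 (adjusted p = 0.869 and 0.235), on 5 to 18 counts per library. Beside Adgrg6, Hivep2 and Vta1 were at −0.25 ± 0.21 and −0.43 ± 0.55. Beside Adgra3, Kcnip4 and 4930448I18Rik were at −0.16 ± 0.10 and −0.02 ± 0.21, and beside Adgrb3, Lmbrd1 and 4931408C20Rik at −0.07 ± 0.35 and 0.05 ± 0.40. Several of these windows held few counts, so a change in them could be missed. Other gene windows overlap those of 11 members, and 16 members stand free.

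The ligands, signalling partners and relatives of these receptors carried calls in both directions. Of 65 genes listed 59 were tested, and 7 gained and 3 lost (16.9% called, beside 6.42% of all tested genes), with a median log2 fold change of 0.07 beside −0.01. A mean of at least 50 counts was held by 48 of them, of which 9 were called, where the share over all genes with that many was 10.7%. Of 31 tested ligands and binding partners 3 gained and 0 lost, or 9.68% called (0 lost also at an unadjusted p below 0.05 and by DESeq2). Over all tested genes 4.46% gained and 1.96% lost, so 0 lost of 31 is near that share. Unc5d, a netrin receptor that joins Flrt proteins and latrophilins in one complex, had 139 and 147 CPM in wild type and 198 and 225 in cKO (log2 fold change 0.56 ± 0.11, adjusted p = 2.5e-05). Its relative Unc5a had 93.5 and 75.1 in wild type and 106 and 118 in cKO (0.41 ± 0.13, adjusted p = 0.0283). Prnp, whose prion protein is a ligand of Adgrg6, had 31.8 and 33.0 in wild type and 48.9 and 61.9 in cKO (0.78 ± 0.18, adjusted p = 0.00066). In all 3 genes the genotypes did not overlap, as in 47.6% of all tested genes. These 3 were named because they were called, so this adds nothing to the calls. Each call was lost without cKO library 2, at 0.47 for Unc5d, 0.33 for Unc5a and 0.60 for Prnp (adjusted p = 0.0865, 0.488 and 0.193). That of Unc5a was lost also without wild-type library 2 (0.28, adjusted p = 0.361) and without cKO library 1 (0.49, adjusted p = 0.0996). The teneurins Tenm1 to Tenm4 had log2 fold changes of 0.12, 0.12, 0.23 and 0.05 and were not called (1 at an unadjusted p below 0.05, 0 by DESeq2). Flrt1 and Flrt3 had 0 counts in every library, and their windows lie wholly within other windows, whose shared reads were mostly not counted, so they give no value. Cd55, the ligand of Adgre5, was at 0.07 ± 0.14.

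Of 15 tested signalling genes 1 gained and 3 lost, beside 4.46% gained and 1.96% lost over all tested genes. Elmo1, which links Adgrb1 to Rac, had 52.4 and 62.3 CPM in wild type and 45.3 and 32.7 in cKO (−0.55 ± 0.17, adjusted p = 0.0227), and its partner Dock1 was at −0.06 ± 0.18. The Elmo1 call was lost without cKO library 2, where the change was −0.33 (adjusted p = 0.621), and without wild-type library 2 (−0.42, adjusted p = 0.315). Dlg4, a synaptic scaffold that binds the tails of several of these receptors, had 25.6 and 28.9 in wild type and 10.4 and 15.8 in cKO (−1.05 ± 0.26, adjusted p = 0.00222), in a window of which 20.0% is overlapped. Its call was lost without cKO library 1 (−0.78, adjusted p = 0.14) and without wild-type library 2 (−0.95, adjusted p = 0.05). Arhgef11, an exchange factor for small GTPases downstream of G proteins, had 15.9 and 13.7 in wild type and 8.87 and 4.97 in cKO (−1.11 ± 0.35, adjusted p = 0.0321). The Arhgef11 call was lost without cKO library 2 (−0.74), without wild-type library 1 (−0.99) and without wild-type library 2 (−1.19). Without cKO library 1 the change was −1.57. Each of these fits leaves 1 library in a genotype, which makes a call harder. Arrb1, a β-arrestin gene, was the one that gained (0.59 ± 0.18, adjusted p = 0.0192), a call lost when any 1 library was left out (0.54 to 0.66). Celsr1, of planar cell polarity, gained by 0.34 ± 0.09 (adjusted p = 0.00988), and its relatives Celsr2 and Celsr3 were at 0.11 ± 0.13 and 0.25 ± 0.16. Pkd1l2, of the polycystin family, gained by 0.35 ± 0.11 (adjusted p = 0.0326). Without cKO library 1 or 2 Celsr1 was at 0.32 and 0.37 (adjusted p = 0.214 and 0.151) and Pkd1l2 at 0.44 and 0.25 (adjusted p = 0.0966 and 0.601), and without wild-type library 1 Pkd1l2 was at 0.29 (adjusted p = 0.184). Other windows overlap 10.7% of the Arhgef11 window, 9.0% of that of Unc5a, 7.9% of Arrb1, 4.1% of Pkd1l2 and 3.3% of Celsr1. Of the partner list, 5 genes were called with upper-quartile factors, 3 with housekeeping scaling and 2 by DESeq2. There were 6 calls with wild-type library 2 left out, 4 with cKO library 1 left out and 1, Dlg4, with cKO library 2 left out.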

How the data were processed

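Raw counts per Entrez gene and library were deposited by the authors in 1 table, made with featureCounts on mm10 per the submitters' processing notes. The sources used here do not give the aligner, the handling of duplicates or the counting options. The sources used here do not define the window. Its length equals the reference gene span plus 3 kb on each side for 11525 genes, 5 members among them. In 18 members it is within 1% of that, and in 9, Adgrl3 and Adgrg1 included, 1.7% to 29.6% shorter. Of windows lying wholly inside others 67.1% were empty in every library, against 1.3% of windows free of overlap, so most shared reads were left out. Overlaps use reference positions and are approximate where the deposited length differs. Symbols came by ID from the RefSeq table of GRCm38.p6, where 93.0% of IDs and all 27 members were found.

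Genotypes were compared with edgeR 4.0.16 (R 4.3.3; TMM, filterByExpr, glmQLFit and glmQLFTest, genotype as the only term) over the whole table, with Benjamini-Hochberg adjustment at 0.05, after a check on simulated counts. Adjusted p values are from this test unless DESeq2 (1.42.0) is named. A standard error is the log2 fold change divided by the square root of F. Intervals are 95% and use the test's t quantile. No set test was run. Alternatives were other scalings (30 housekeeping genes among them), other count filters, thinning to 2142175 counts, DESeq2, a replicate block and leaving out each library. Text values cover called members, the 5 highest and 5 lowest levels, members known from leukocytes or lung and those whose call changed, with called partners, of which 1 is not reported here. Tenm1 to Tenm4, Cd55, Dock1, Celsr2, Celsr3, Adgrf2, Adgrf4, Adgrv1 and the neighbouring genes were added after their values were seen. Members and lists were chosen with earlier results of these data known.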

Additional observations from a re-analysis of the deposited data

How the results depend on the processing

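Of 346 recomputed log2 fold changes of members, 316 kept their direction and side of the threshold, 14 lost and 7 gained a call, and 9 changed sign. Counts thinned to the depth of the shallowest library gave 763 calls over all genes, 4 among members and 7 among partners. Called members numbered 3 to 7 when each library was left out. Over all genes, 1076 calls became 639 with housekeeping scaling, 376 by DESeq2 and 426 to 945 without each library (589 without cKO library 1 and 426 without cKO library 2). Partner calls fell from 10 to 5 with upper-quartile factors, 3 with housekeeping scaling and 2 by DESeq2, and were 1 to 7 without each library. Signs changed in members that were not called: with housekeeping scaling Adgrf1 (0.14), Adgrf5 (0.03), Adgrg7 (0.11) and Adgrv1 (0.18), with upper-quartile factors Adgrl4 (−0.02), and without 1 library Adgre1 (−0.11 to 0.39 over the 4 libraries), Adgrf4 (−0.09 to 0.42), Adgrl4 (−0.13 to 0.25) and Adgrv1 (−0.16 to 0.07). The median member level in wild type, 1.45 CPM per kb, was 1.48 with library totals, 1.495 with upper-quartile factors, 1.35 with housekeeping scaling and 1.57 per kb of unshared window, and in cKO, 1.53, it was 1.49 with upper-quartile factors and 1.66 with housekeeping scaling. Same-numbered libraries did not deviate together over all tested genes (correlation 0.009). Many of these genes held few counts, so this value cannot exclude that the libraries were paired. The replicate block gave 1039 calls over all genes, 6 members and 10 partners. The cause of these shifts was not tested. Depth limits Adgre1, Adgrl2 and Adgrf3 most, with standard errors of 0.29, 0.32 and 0.35 on the log2 scale.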
